A study of Mus musculus with 16 samples.

Results

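The stretch of mouse chromosome 13 from 113100000 to 114700000 (GRCm38) holds Snx18 and Arl15 with their flanks, and was selected on the H3K9me3 values of these libraries, because peaks of both genes were higher in Smarcad1-KO than in WT crypts. The 1.6 Mb window held 102 of the 212313 H3K9me3 peaks of the series, of which 50 overlapped Arl15, 2 overlapped Snx18 and 50 overlapped neither gene. It also held 39 of 47065 H3K9me2 regions. The KO and WT values of H3K9me3 chose the window. Calls of its H3K9me3 peaks, also under alternative settings, are therefore a description and no support for a gain. H3K9me2, which the choice did not use, is tested. The gain was not 1 continuous domain. It consisted of a 349.0 kb stretch of Arl15 and of a pair of peaks in the Snx18 intron, with 175.9 kb between the genes in which 13 of 14 peaks were not called higher.

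Chromatin immunoprecipitation with sequencing (ChIP-seq) was done on whole crypt isolates of the small intestine of male C57BL/6 mice. WT mice are labelled wild type, with no further allele given, and KO mice carry Vil-Cre and a Smarcad1 gene whose loxP-flanked exons are excised by it. The Villin promoter drives the recombinase in the intestinal epithelium, so other cells of a crypt isolate keep Smarcad1. Each mark was measured in 3 WT and 3 KO libraries and each genotype also had 1 input, the sonicated chromatin before the antibody step. The labels give no age and do not say whether a library is 1 mouse. The p-values below therefore measure the spread between libraries. The authors call the H3K9me3 replicates biological. For H3K9me2 they write of replicates only, so that spread may be technical. Expression was not measured in these libraries. Peaks overlapped 1 of 10 epithelial and crypt marker genes and 2 of 8 markers of other cells, where 27.1% of all protein-coding genes overlapped a peak. Lgr5 had 1 of its 3 peaks called lower and the only peak of Pecam1 was called lower, as 2.46% of all peaks were. This does not tell what cells were present, and the loss of Smarcad1 was not checked here.

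H3K9me3, trimethylation of histone H3 at lysine 9, is laid down by dedicated methyltransferases, is bound by HP1 proteins and marks compact, mostly silent chromatin over repeats and repressed genes. H3K9me2, the dimethylated form, covers broader stretches of repressed chromatin. Smarcad1 is an ATP-dependent chromatin remodeler that has been linked to the maintenance of heterochromatin. Arl15 encodes a small GTPase of the ADP-ribosylation factor-like family that acts on magnesium transport through CNNM and TRPM proteins, and Snx18 encodes a sorting nexin that bends membranes during endocytosis.

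The sequences below are examples from before the start sites of the genes and from H3K9me3 peaks. They were read from GRCm38.p6 of RefSeq, 5′ to 3′ on the strand of the gene, with each CG dinucleotide in capitals. The first pair lies directly before the first exon of each gene, where no H3K9me3 peak was found. The 247 bases before Arl15 held 23 CG and the 250 bases before Snx18 held 28 CG.
Arl15 upstream, chr13:113794258-113794504, + strand: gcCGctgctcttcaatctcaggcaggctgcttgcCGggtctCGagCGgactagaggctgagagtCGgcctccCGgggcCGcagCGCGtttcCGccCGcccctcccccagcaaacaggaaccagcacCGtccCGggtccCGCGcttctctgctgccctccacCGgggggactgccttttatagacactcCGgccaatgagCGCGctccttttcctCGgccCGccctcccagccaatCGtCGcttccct
Snx18 upstream, chr13:113618565-113618814, - strand: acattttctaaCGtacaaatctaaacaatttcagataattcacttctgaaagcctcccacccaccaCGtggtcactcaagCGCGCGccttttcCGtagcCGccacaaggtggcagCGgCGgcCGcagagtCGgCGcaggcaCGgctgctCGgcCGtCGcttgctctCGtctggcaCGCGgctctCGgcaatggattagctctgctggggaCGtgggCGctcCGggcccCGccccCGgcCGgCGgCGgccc
The next pair is the middle 300 bases of the peak with the largest gain in each gene, with 6 CG in Arl15 and 0 CG in Snx18. The last one is the middle of the Arl15 peak of highest level that was not called, with 0 CG and 84.7% of its bases in annotated repeats.
Arl15 gained peak, chr13:114145276-114145575, + strand: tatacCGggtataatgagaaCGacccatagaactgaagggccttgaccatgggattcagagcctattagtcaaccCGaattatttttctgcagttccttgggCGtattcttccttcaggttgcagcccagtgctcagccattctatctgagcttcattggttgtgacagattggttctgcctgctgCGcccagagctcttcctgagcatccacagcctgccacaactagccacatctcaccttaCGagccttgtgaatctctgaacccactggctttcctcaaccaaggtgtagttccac
Snx18 gained peak, chr13:113599126-113599425, - strand: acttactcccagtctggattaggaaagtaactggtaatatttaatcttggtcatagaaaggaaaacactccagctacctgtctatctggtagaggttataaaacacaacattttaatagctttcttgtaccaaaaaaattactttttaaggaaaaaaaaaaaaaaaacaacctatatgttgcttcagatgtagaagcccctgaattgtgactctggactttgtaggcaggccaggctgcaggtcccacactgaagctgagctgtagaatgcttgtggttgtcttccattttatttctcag
Arl15 peak not called, chr13:114105001-114105300, + strand: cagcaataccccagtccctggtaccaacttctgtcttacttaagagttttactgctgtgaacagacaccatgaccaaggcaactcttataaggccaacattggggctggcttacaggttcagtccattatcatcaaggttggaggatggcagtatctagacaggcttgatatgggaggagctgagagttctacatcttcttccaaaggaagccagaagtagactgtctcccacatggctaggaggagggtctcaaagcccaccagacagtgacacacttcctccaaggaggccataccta
CG, which reads the same on both strands, was the only motif counted. It was present in 94.6% of the 32851 RefSeq promoter windows of 300 bases, with a median of 7 per window. The middle 300 bases of the 48 gained Arl15 peaks held 0 to 12 CG with a median of 4.5, and those of the 50 peaks outside both genes held 0 to 16 with a median of 2.

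H3K9me3 values are log2 read counts per peak that the authors transformed so that all 6 ChIP libraries share 1 distribution. The mean over all peaks was 5.10 in every library, and a change is therefore relative to all other peaks. The libraries held 7058437 to 11832162 reads in peaks. WT replicate 3 stood apart over Arl15. Its mean there was 0.95 below that of the other WT libraries on the log2 scale, while it was 0.05 below over the peaks outside both genes and 0.11 above over Snx18. Over the 485 peaks called higher elsewhere in the genome it was 0.32 below. The part of this library in the Arl15 changes was examined after the data were seen, and its main values are given with and without it. Why it stands apart was not tested, and its identity was not checked here beyond its label, on which the WT means at these loci rest.

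Over the 50 peaks of Arl15, the mean log2 level was 5.30, 5.07 and 4.24 for WT replicates 1, 2 and 3, against 6.55, 6.70 and 6.47 for the KO replicates in the same order. All KO libraries lay above all WT libraries. The wider spread of the WT libraries rests on WT replicate 3. WT replicates 1 and 2 differed by 0.23, and the KO libraries ran from 6.47 to 6.70. The group means were 4.87 ± 0.56 in WT and 6.57 ± 0.12 in KO (SD, n = 3), a difference of 1.70 on the log2 scale. Without WT replicate 3 the difference was 1.39. Over the 2 peaks of Snx18, the mean log2 level was 4.13, 4.03 and 4.19 in WT and 5.60, 5.82 and 5.72 in KO. Here no WT library stood apart, and the group means of 4.12 ± 0.08 and 5.71 ± 0.11 (SD, n = 3) differed by 1.60. The 50 peaks outside both genes moved the other way, from 5.09 ± 0.06 in WT to 4.85 ± 0.10 in KO (SD, n = 3). The 60 peaks in the flanks of 1.6 Mb on either side went from 5.17 ± 0.02 to 4.91 ± 0.14 (SD, n = 3), so the surroundings of the window shared this lower level.

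**Figure D1:**
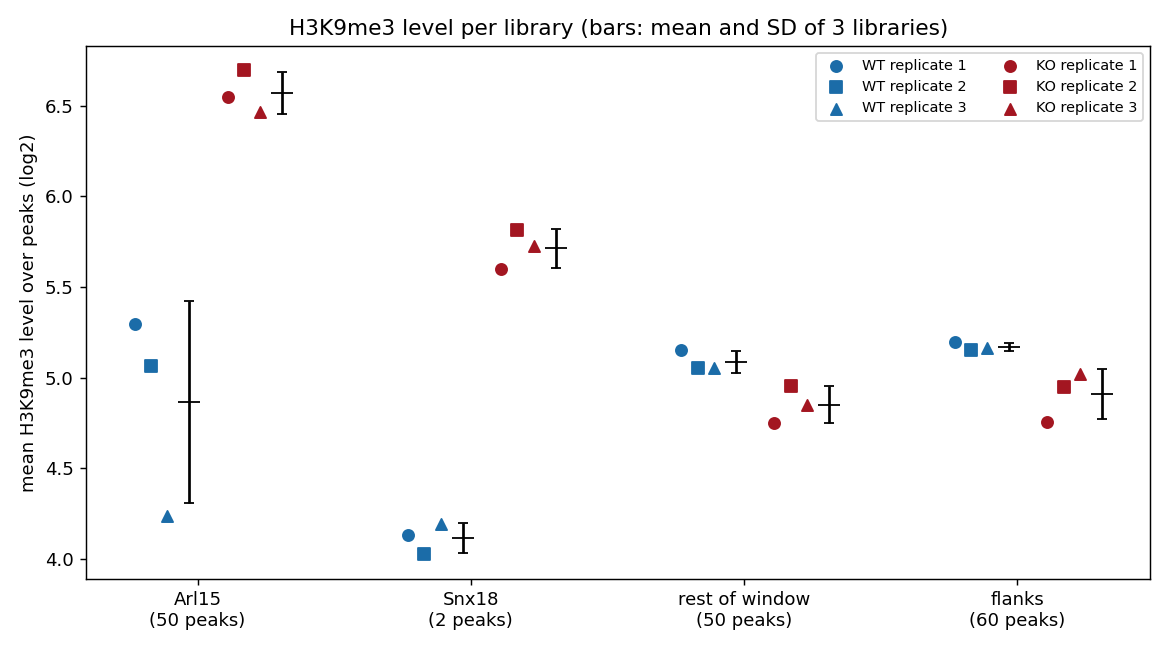
Mean log2 H3K9me3 level over the peaks of Arl15, of Snx18, of the rest of the window and of the flanks, for each WT (blue) and KO (red) library, with the mean and SD of 3 libraries as black bars. All KO libraries lie above all WT libraries at Arl15 and Snx18, WT replicate 3 lies lowest at Arl15 with 4.24, and KO libraries lie below WT libraries in the other 2 groups.

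Of the 102 peaks, 51 were called higher and 5 lower in KO (limma, Benjamini-Hochberg adjusted p under 0.05), where 0.252% of all peaks were called higher and 2.46% lower. These counts restate the choice of the window. Arl15 had 48 of the 51, Snx18 2, and 1 lay between the genes. All 50 Arl15 peaks had a positive change, from 0.26 to 2.87 on the log2 scale. All 3 KO values were above all 3 WT values in 49 of them, as in 7.30% of all peaks. DESeq2 on read counts recovered from the deposited values called 29 peaks of the window higher, where it called 0.0579% of all peaks.

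The gained stretch followed the Arl15 gene (ENSMUSG00000042348, chr13:113794505-114157461, plus strand). It began at position 113809801, 15296 bp inside the gene, and ended at 114158850, 1389 bp past its annotated end. The start site and the first 4.2% of the gene were thus outside, and the nearest H3K9me3 peak lay 12746 bp from the start site. At the upstream edge, 1650 bp before the first gained peak, the peak at chr13:113807251-113808150 had log2 levels of 4.43, 3.88 and 3.96 in WT and 4.28, 4.17 and 4.77 in KO. These values overlap, and this peak was not called. The first gained peak (chr13:113809801-113820900) went from 7.81, 7.69 and 6.82 in WT to 8.89, 8.83 and 8.82 in KO. The last gained peak (chr13:114156001-114158850) covers the end of the gene and went from 5.06, 5.14 and 4.81 to 6.83, 6.87 and 6.45. The next peak lay 18900 bp further on (chr13:114177751-114180600) and was called lower, from 6.81, 6.74 and 6.59 to 6.07, 6.41 and 5.72. The change of sign thus fell in a gap without peaks.

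Peaks covered 78.2% of the gained stretch, with gaps of at most 10950 bp. They lay over all 4 introns of the longest coding transcript of Arl15 and over 4 of its 5 exons, all but exon 1. Assigned by their middle, 7 of 8 peaks in intron 1, 7 of 7 in intron 3 and 32 of 33 in intron 4 were called higher, with mean changes of 1.43, 1.57 and 1.81 on the log2 scale, and intron 2 held 1 peak with 1.39. Without WT replicate 3 these changes were 1.04 (intron 1), 0.91 (intron 2), 1.15 (intron 3) and 1.53 (intron 4). Across the gene in bins of 60 kb from the start site, the median change ran between 1.40 and 2.17 with no steady slope, and between 0.98 and 1.81 without WT replicate 3. An antisense RNA gene of unknown role, A430090L17Rik, lies within intron 4, and all 8 of its peaks are also Arl15 peaks called higher. ChIP-seq has no strand, so these peaks cannot be given to either gene.

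**Figure D2:**
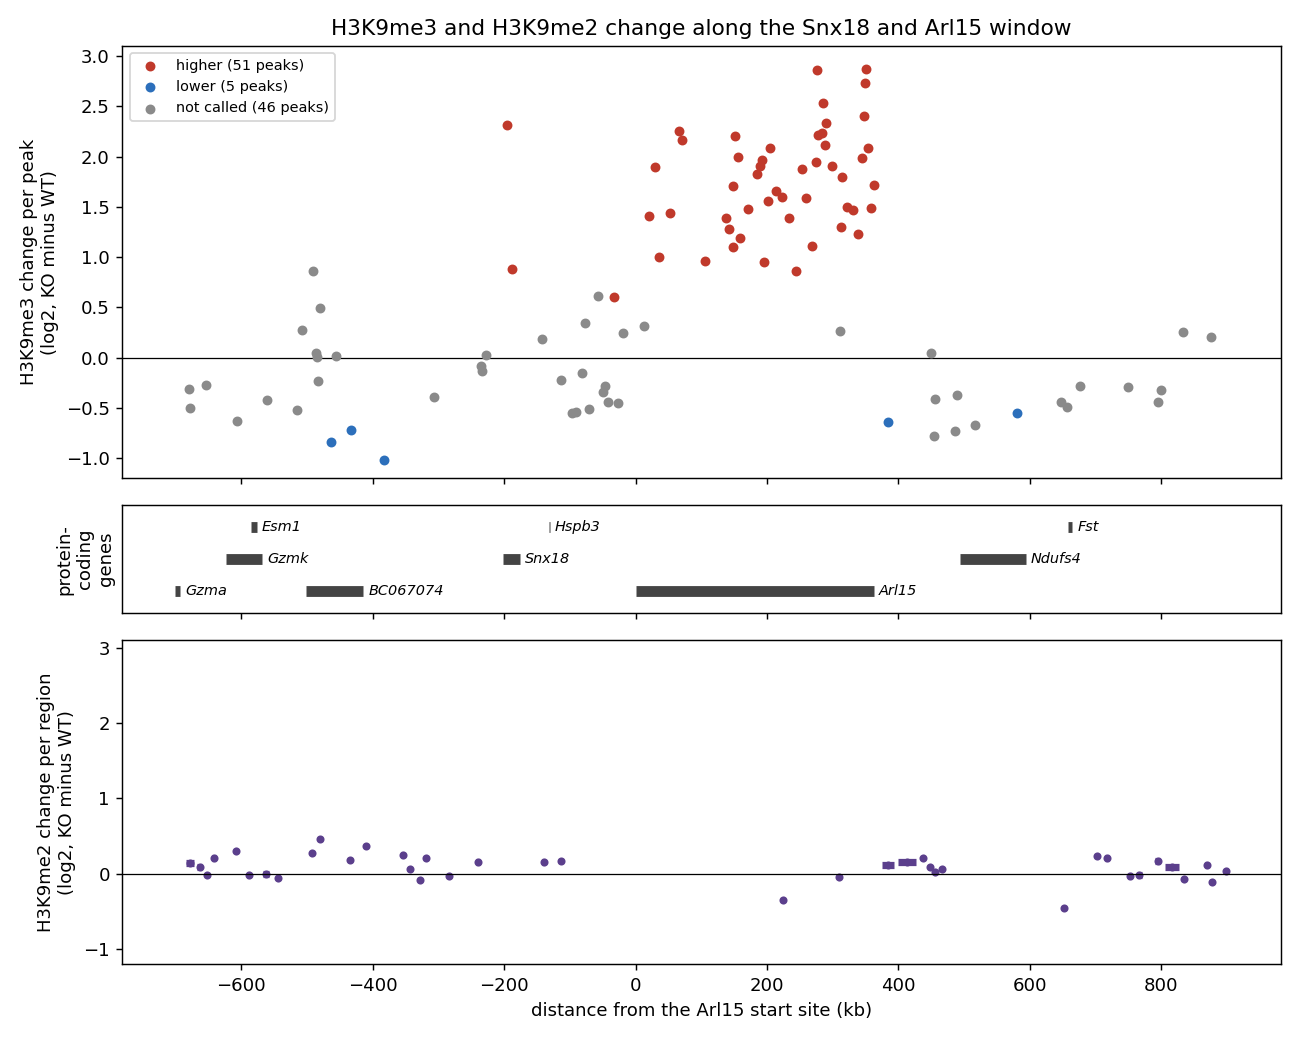
Top, log2 change (KO minus WT) of each of the 102 H3K9me3 peaks against distance from the Arl15 start site in kb, coloured by call. Middle, the protein-coding genes. Bottom, the log2 change of each of the 39 H3K9me2 regions on the same scale. Gained peaks fill Arl15 and stand alone in Snx18, peaks outside both genes lie between -1.02 and 0.87, and H3K9me2 changes stay between -0.45 and 0.46.

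The widest peak, chr13:113867551-113932650, is 65100 bp long and holds exon 2. Its log2 level was 11.28, 11.00 and 9.96 in WT and 11.75, 11.75 and 11.63 in KO, a change of 0.96 that was among the smallest of the gained peaks, and of 0.57 without WT replicate 3. It was already the highest WT peak of the gene per length, at 28.3 per kb (linear scale of the deposited values) against a median of 12.5 per kb over the 48 gained peaks. Without WT replicate 3 these WT values were 34.8 and 15.2 per kb. In KO the same peak reached 51.4 per kb against a median of 39.3. Gained peaks of 5 kb or more had a median change of 1.45, and those under 1.5 kb of 1.97, or 1.05 and 1.60 without WT replicate 3. Both classes hold only called peaks, with lowest changes of 0.96 and 1.10. Narrow peaks have fewer reads and need a larger change to be called, so nothing is read from the order of these 2 medians. The gained peaks ran from 31.8 to 55.7 per kb in KO and from 7.25 to 28.3 per kb in WT, or from 4.77 to 34.8 per kb in WT without WT replicate 3. Peaks were called on the WT and KO libraries together and these were kept for a higher KO level, so the ranges of the genotypes are not compared. The peaks outside both genes ran at a median of 29.3 per kb in WT and 24.7 in KO. Nothing is read from the order of these medians and those of the gained peaks, since the gained peaks were chosen on the same values.

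**Figure D3:**
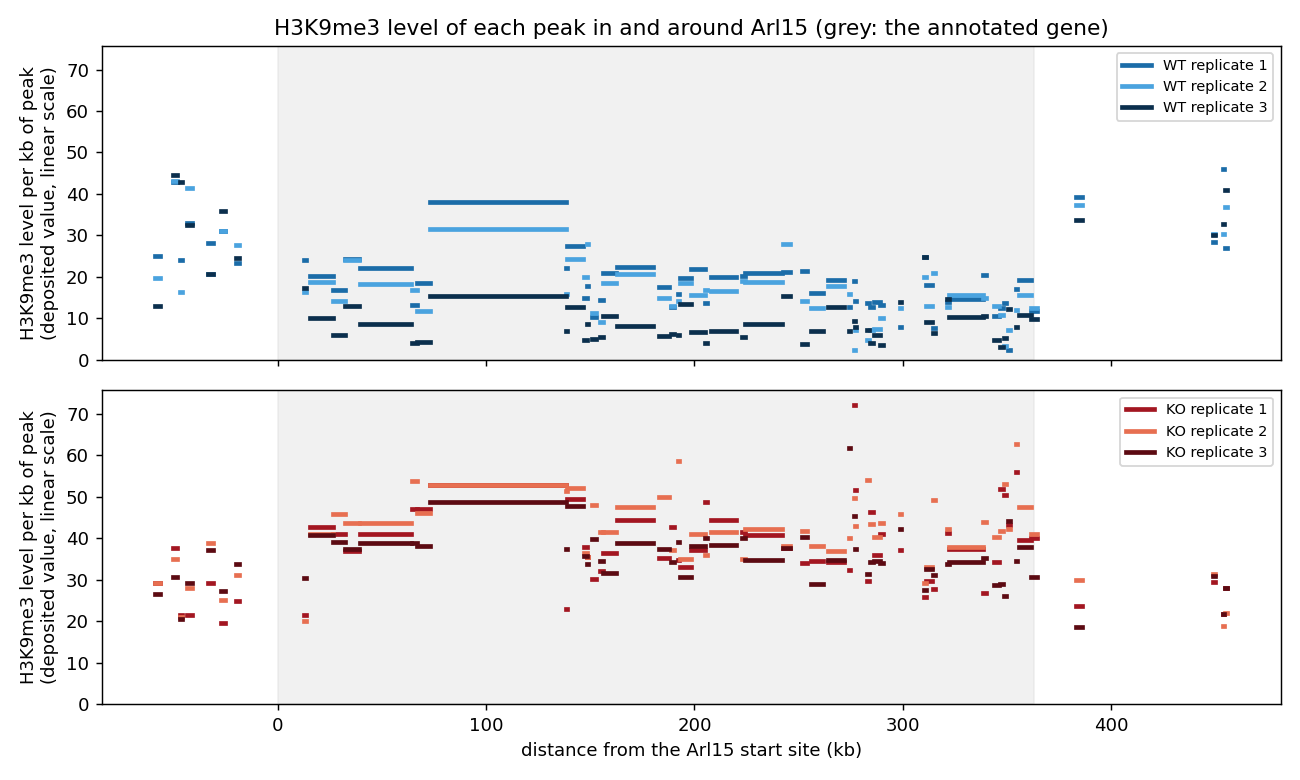
H3K9me3 level per kb of peak (linear scale of the deposited values) against distance from the Arl15 start site in kb, for the WT libraries (top) and the KO libraries (bottom), with each horizontal bar spanning 1 peak. Within the gene (grey) WT replicate 3 runs lowest over most peaks, the widest peak is the highest broad one in each genotype, and the KO libraries run together near 39.3 per kb.

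The 6 Arl15 peaks with the largest change were all under 1.5 kb and all lay in intron 4. The largest was chr13:114145051-114145800, with log2 levels of 0.81, 2.43 and 3.20 in WT and 5.02, 4.99 and 5.05 in KO, a change of 2.87. These levels stand for 3, 5 and 11 recovered reads in WT and 23, 37 and 33 in KO, where the inputs held 18 and 17. The peak at chr13:114071101-114071550 had 10, 1 and 5 reads in WT and 23, 26 and 20 in KO, and a change of 2.86. Its count of 1 in WT replicate 2 cannot be told from 0, so the size of this change rests on the lower limit of the values. The peak at chr13:114142951-114143850 had 14, 3 and 6 reads in WT and 32, 56 and 23 in KO, a change of 2.74. The other three, at chr13:114078901-114080100, chr13:114141301-114142650 and chr13:114083701-114085050, had changes of 2.53, 2.40 and 2.33. Their WT libraries held 5 to 20 reads and their KO libraries 39 to 69, with no overlap.

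The 2 Arl15 peaks not called include 1 within the gained stretch, chr13:114104551-114105750, which abuts a gained peak. Its log2 level was 4.89, 4.58 and 4.90 in WT and 4.95, 5.14 and 5.05 in KO, all KO values above all WT values with a change of 0.26. It held 23.1 per kb in WT and 27.6 per kb in KO. A H3K9me2 region (chr13:114102601-114105900) covers it.

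In Snx18 (ENSMUSG00000042364, chr13:113592179-113618564, minus strand) the gain was narrow. Its 2 peaks cover 11.9% of the gene, both lie in intron 1 of its longest coding transcript, and the start site lies 11864 bp from the nearest peak. The wider peak, chr13:113598301-113600250, went from log2 levels of 4.43, 3.54 and 3.88 in WT to 6.25, 6.33 and 6.20 in KO, a change of 2.31. It held 24, 11 and 17 reads in WT, 53, 94 and 74 in KO, and 48 and 47 in the WT and KO inputs. This peak kept its call in all 12 alternatives, which reuse the values that chose the window and lend it no support. The other peak, chr13:113605501-113606700, went from 3.83, 4.52 and 4.51 to 4.95, 5.30 and 5.25, a change of 0.89. Its groups do not overlap, but its call was lost by DESeq2, at an adjusted p under 0.01, with a log2 change of at least 1, and without WT replicate 1, KO replicate 2 or KO replicate 3.

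Outside both genes, 35 of 50 peaks had a negative change, as 45.3% of all peaks did, and the median was -0.32 on the log2 scale against -0.26 in the flanks and 0.03 over all peaks. All KO values were below all WT values in 17 of the 50, as in 8.21% of all peaks. The peak called higher, chr13:113761051-113763450, lies over the pseudogene Gm6343 and went from 6.08, 5.64 and 5.63 in WT to 6.13, 6.55 and 6.48 in KO. The 3 peaks called lower before Snx18 include 2 in the protein-coding gene BC067074. They changed by -0.84 (chr13:113329801-113331450), a call kept in 7 of 12 alternatives, and by -0.72 (chr13:113361001-113362350), a call kept in 3 and lost with any single library left out. The third, at chr13:113411851-113412900 outside any gene, went from 5.06, 5.30 and 5.27 to 3.47, 4.91 and 4.20. Its change of -1.02 was -0.65 without KO replicate 1, and its call was kept in 7 of 12 alternatives, being lost by DESeq2, at an adjusted p under 0.01 and without WT replicate 2, WT replicate 3 or KO replicate 1. The remaining one lies in Ndufs4, which encodes a subunit of respiratory complex I, and changed by -0.55 (chr13:114373501-114376050), a call kept in 6 of 12. That of the lower peak past the end of Arl15 was kept in 8 of 12, and DESeq2 called none of the 5. Against these 5, leaving out single libraries gave 1 to 4 lower calls outside both genes, with 2 without WT replicate 1, 3 without WT replicate 2, 1 without WT replicate 3 and 2 without KO replicate 1. The call of the Gm6343 peak was lost by DESeq2, at an adjusted p under 0.01, with a log2 change of at least 1, and without WT replicate 2 or 3 or KO replicate 2 or 3.

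The 3 peaks of highest level that were not called all lie between Snx18 and Arl15. The peak at chr13:113650201-113653950 had log2 levels of 6.54, 6.32 and 6.72 in WT and 6.81, 6.76 and 6.56 in KO, and the groups overlap. At chr13:113744101-113746200 the levels were 6.49, 6.50 and 6.55 in WT and 6.30, 6.20 and 6.01 in KO, and at chr13:113751001-113753250 they were 6.21, 6.55 and 6.20 in WT and 5.59, 5.98 and 6.04 in KO. In these last peaks all KO values lie below all WT values, with changes of -0.34 and -0.45. Over the 14 peaks between Snx18 and Arl15 the changes ran from -0.55 to 0.61 with a median of -0.26.

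Of the 9 protein-coding genes of the window, Arl15 and Snx18 alone had a peak called higher. Gzma and Esm1, which encode a granzyme of cytotoxic lymphocytes and a secreted proteoglycan of endothelium, had no peak, as had Hspb3, a small heat shock protein gene, and Fst, which encodes the activin-binding protein follistatin. Gzmk, another granzyme gene, had 1 peak with a change of -0.63 that was not called. BC067074 had 8 peaks with changes from -0.84 to 0.87, and Ndufs4 had 2, with -0.55 and -0.67. Hspb3 lies between Snx18 and Arl15, 9726 bp from the nearest peak.

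H3K9me2 was sparse where H3K9me3 was gained. Its regions covered 1.2% of Arl15, none of Snx18 and 12.2% of the window, where H3K9me3 peaks covered 75.1%, 11.9% and 21.5%. Of the 39 regions, 0 were called higher or lower (edgeR quasi-likelihood test, smallest Benjamini-Hochberg adjusted p of 1.0), as 0% and 0.00212% of all regions were. DESeq2 also called 0, and 2 of the 39 had an unadjusted p under 0.05, as 3.12% of all regions did. The smaller region in Arl15 (chr13:114019051-114020100) held 2.00, 1.94 and 2.30 reads per 1000000 in WT and 1.82, 1.63 and 1.46 in KO. The KO values were all lower, with a log2 change of -0.35 and an unadjusted p of 0.12 by edgeR. The larger one (chr13:114102601-114105900) held 5.42, 4.99 and 4.35 in WT and 4.82, 4.00 and 5.45 in KO, and the groups overlap with a log2 change of -0.04. Summed over the window, H3K9me2 was 233.3, 221.0 and 212.6 reads per 1000000 in WT and 236.5, 234.1 and 243.8 in KO. All KO libraries lay above all WT libraries by a mean of 0.10 on the log2 scale (exact two-sided permutation test, p = 0.1, the smallest that 3 against 3 can give). Over the 2 regions in Arl15 the difference was -0.13 (exact permutation p = 0.2), over the 4 regions from the Snx18 peaks to the end of the gained stretch, 2 of which lie between the genes, it was 0.03 (exact permutation p = 0.8), and over the flanks 0.004 (exact permutation p = 0.9).

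Each genotype had 1 input library per mark, and the part of DNA content in the H3K9me3 change was not tested. The H3K9me3 inputs held 7454 reads (WT) and 7752 reads (KO) over the peaks of the window, a log2 ratio of 0.12 after scaling to all peaks (95% exact binomial interval 0.08 to 0.17, counting error only, 1 library per genotype). Over Arl15 the ratio was 0.13 (0.07 to 0.18), over Snx18 0.03 (-0.46 to 0.51), and over the flanks 0.11 (0.03 to 0.20). The inputs of the H3K9me2 set gave -0.03 (-0.10 to 0.05) over the H3K9me2 regions of the window. Set against the input of the same genotype, with all peaks as 0, summed Arl15 reads lay at a log2 ratio of -0.50 ± 0.65 in WT and 0.65 ± 0.10 in KO, and Snx18 reads at -1.28 ± 0.07 and 0.35 ± 0.08 (SD, n = 3). The WT libraries of Arl15 lay at 0.003, -0.27 and -1.24, with WT replicate 1 level with all peaks and a mean of -0.13 without WT replicate 3. All 3 WT libraries of Snx18 lay below 0, at -1.29, -1.34 and -1.20. Of the Arl15 reads, 35.0% to 67.3% per library lie in peaks too large for exact recovery of the count.

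The sequence make-up of the gained peaks was not used in the choice. Annotated repeats made up a median of 16.6% of the 48 gained Arl15 peaks (0% to 42.5%) and 11.2% and 12.3% of the Snx18 peaks. The median was 47.1% in the 50 peaks outside both genes, 39.2% in the flanks and 35.2% over all peaks. The share in the gained peaks was near that of the genes themselves, at 21.0% of Arl15 and 13.1% of Snx18. The 485 peaks called higher elsewhere also had a low median of 18.2%, and the 5226 called lower had 48.9%. The 2 Arl15 peaks not called were at 53.4% and 47.4%. CpG observed over expected, the CG count relative to that from base composition, had a median of 0.31 in the gained Arl15 peaks, 0.23 outside both genes, 0.22 in the flanks, 0.24 in the 485 peaks called higher elsewhere and 0.14 over all peaks. Median GC content was 43.5% in the gained Arl15 peaks, 48.0% in the Snx18 peaks and 42.8% outside both genes. It was 43.1% in the flanks, 43.1% in the 485 peaks called higher elsewhere and 39.6% over all peaks. These shares are descriptions, since neighbouring peaks of 1 gene are not independent.

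**Figure D4:**
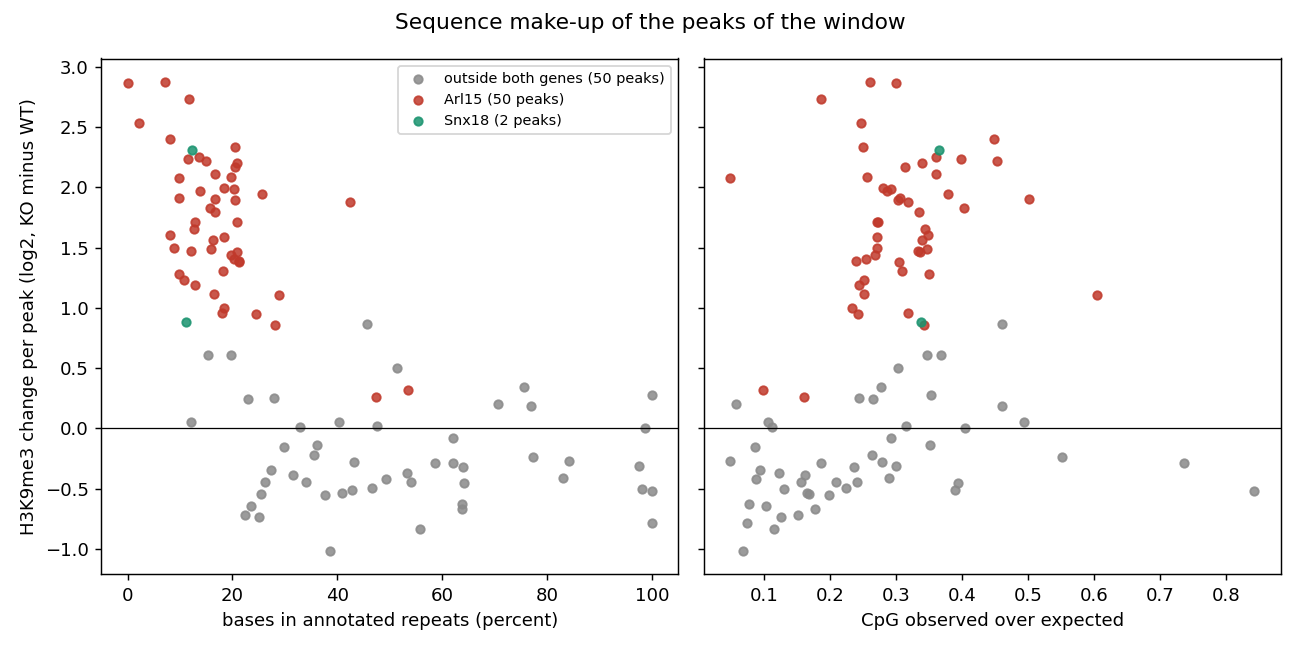
Log2 change in H3K9me3 (KO minus WT) of the 102 peaks of the window against the percent of bases in annotated repeats (left) and CpG observed over expected (right). Gained Arl15 (red) and Snx18 (green) peaks lie at 0% to 42.5% repeats, and the 2 Arl15 peaks near 0 change lie at 47.4% and 53.4%.

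Relatives and partners of these genes are set beside the 27.1% of 21924 protein-coding genes that overlapped a H3K9me3 peak. Among the other genes of the SNX9 subfamily, Snx9 had 1 peak with a change of -0.43 and Snx33 1 peak with -0.84, neither called by limma or DESeq2 and both at an unadjusted limma p under 0.05. Of 20 ARF-like genes, Arl15 was the only one with a peak. Of 6 genes for magnesium transport partners of ARL15, Cnnm1, Trpm6 and Trpm7 had 1 peak each, with changes of -0.56, -0.18 and -0.40, and 0 of these 3 peaks were called by limma or DESeq2, with 1 at an unadjusted limma p under 0.05, beside 0.252% of all peaks called higher and 2.46% lower. Nothing is read from counts this small.

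Grip1, a gene for a synaptic scaffold protein, and Tiam1, a gene for an activator of Rac, are similar gained loci and are set beside Arl15 without a test. Grip1 had 64 of 93 peaks called higher and mean log2 levels of 6.10, 6.04 and 5.19 in WT and 6.41, 6.70 and 6.52 in KO. Tiam1 had 15 of 20 called higher and levels of 8.19, 8.04 and 7.01 in WT and 8.48, 8.52 and 8.50 in KO. Their mean changes were 0.77 and 0.75, or 0.47 and 0.38 without WT replicate 3. WT replicate 3 was again lowest, by 0.89 and 1.10 below the other WT libraries. Among 20 genes outside the window with at least 5 peaks and enough spread over the 6 ChIP libraries, the levels most like those of Arl15 were those of Tcf4, Fat1, Mb21d2, Grip1os1 and Grip1, with Pearson r of 0.99, 0.99, 0.97, 0.97 and 0.95 over 6 libraries. This likeness is a description without a p-value, since the libraries fall into WT and KO and share their normalization and WT replicate 3. Tcf4, which encodes a transcription factor, went from 5.31, 5.11 and 4.62 in WT to 6.37, 6.63 and 6.47 in KO, and Fat1, which encodes a large cadherin, from 6.27, 6.05 and 5.61 to 7.57, 7.83 and 7.61. The mean change was 1.70 for Fat1, the same as for Arl15, 1.48 for Tcf4, 1.11 for Mb21d2 and 1.06 for Grip1os1, and without WT replicate 3 it was 1.51, 1.28, 0.80 and 0.70 in the same order, and 1.39 for Arl15.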

How the data were processed

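Per the labels and the methods, read pairs were trimmed with Trim Galore 0.4.4, mapped to GRCm38 with Bowtie2 2.3.2 and filtered on mapping quality and duplicates, and MACS peaks were called on the ChIP libraries of a mark together. The deposited H3K9me3 values were log2 read counts per peak (lower limit 1 read) with distributions matched over the 6 ChIP libraries by the authors, and the input columns were plain log2 counts. For H3K9me2 the authors deposited a signal per region, the mean read count of its peaks, and multiplied by the number of peaks it lay within 0.00114 of whole reads, which were summed. Short lists deposited by the authors held read counts and adjusted p-values of their own test, of which only counts were used, for 3 checks.

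H3K9me3 was fitted with limma 3.58.1 (eBayes with trend) over all peaks, and H3K9me2 with edgeR 4.0.16 (quasi-likelihood, TMM), both on genotype alone with Benjamini-Hochberg adjustment over the whole table. H3K9me3 reads were recovered from the rank of each distinct value, exactly up to 234 to 428 reads. In simulated data with 200 features changed 2-fold, limma recovered 51% over 212313 peaks with 6 false calls and edgeR 88% over 47065 regions with 13. The window, the gene lists and the rule for named peaks were chosen with earlier results of these data known. Named were the 6 Arl15 peaks and all Snx18 peaks of largest change, the widest peaks, edge peaks, called peaks outside both genes and the 3 highest peaks not called. Introns and exons came from GENCODE M21 (transcript with the most coding bases), and sequences and repeats from RefSeq GRCm38.p6. H3K9me3 libraries held 7058437 to 11832162 reads in peaks and H3K9me2 libraries 18986927 to 39080740 in regions. Alternatives were count tests on recovered reads, stricter filters and thresholds, input correction, leaving out single libraries, and the replicate number as a block. No column of values was left without a sample. DESeq2 1.42.0, R 4.3.3 and Python 3.11.15 were also used.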

Additional observations from a re-analysis of the deposited data

How the results depend on the processing

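The count of 51 peaks called higher stayed within 1.5 times under 11 of 12 alternatives, 45 to 50 with single libraries left out, and was 29 by DESeq2. The 5 called lower became 0 by DESeq2, 2 at an adjusted p under 0.01, 1 with a log2 change of at least 1, and 1 to 4 with single libraries left out. The cause was not tested. Mean H3K9me3 changes kept their sign and in all 11 alternatives moved by less than the larger of the WT and KO SD over libraries, which was 0.29 for the window, 0.56 for Arl15 and 0.11 for Snx18. For the window and Arl15 that is the WT SD, which includes WT replicate 3, and the KO SD was 0.10 and 0.12. They ran from 0.59 to 0.87 for the window, 1.39 to 1.92 for Arl15 and 1.55 to 1.65 for Snx18 with single libraries left out, and were 0.95, 1.28 and 1.65 as log2 ratios of summed reads. The H3K9me2 change of 0.10 ran from 0.07 to 0.14 with single libraries left out, where the smallest exact permutation p is above the threshold, and 0 regions were called under all alternatives. The log2 input ratio of 0.12 reversed to -0.025 in the inputs of the H3K9me2 set, which cover other regions.

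Same-numbered H3K9me3 libraries deviated with correlations of -0.02, 0.01 and -0.01, and H3K9me2 libraries with 0.18, 0.02 and 0.08. Libraries of different number were not compared, so whether the numbers pair the libraries cannot be told from these values. With the replicate number as a block, 51 peaks were called higher and 5 lower, the mean changes were 0.75, 1.70 and 1.60, and the H3K9me2 change was 0.10 (exact permutation p = 0.25). Counts of 0 and 1 read cannot be separated, which limits the changes of peaks under 1 kb, and 2-fold changes were recovered in 51% of simulated peaks only.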

Other observations

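The window lies at a change in the cover of H3K9me2. H3K9me2 regions covered 1.2% of the 1.6 Mb before it, 12.2% of the window and 36.8% of the 1.6 Mb after it, against 28.5% of chromosome 13. Within it they covered 13.9% before Snx18, 2.6% between Snx18 and Arl15, 1.2% of Arl15 and 21.7% after Arl15. H3K9me3 peaks covered 3.6% and 1.9% of the flanks before and after, 4.6% of the window before Snx18 and 4.1% after Arl15. Over chromosome 13 they covered 15.3%. H3K9me2 regions overlapped 13 of the 50 H3K9me3 peaks outside both genes, 2 of the 48 gained Arl15 peaks and 0 of the 2 Snx18 peaks.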
